A study of Bos taurus with 6 samples.

Results

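The miRNAs described here are bta-miR-320a, bta-miR-320b and bta-miR-484 in extracellular vesicles (EVs) of cow milk. They belong to the miR-320 and miR-484 families, which are described as made without the nuclear enzyme Drosha. They were chosen by name as every listed cow miRNA called miR-320, with or without a letter, or miR-484. These were 3 of 276 known miRNAs, which carry a name of the cow (bta) in miRBase, and 3 of 779 miRNAs when the 503 predicted sequences were added. Small RNA was sequenced from milk EVs of 6 Holstein cows in mid lactation, with a mean of 101 days in milk, housed at a constant 20 °C. The 3 control cows ate a total mixed ration, and for the 3 replacement cows a portion of its alfalfa hay was exchanged for soybean hull and whole cotton seed. Each library came from a separate cow, so the spread between libraries of a diet is a spread between animals. The labels do not state the age of the cows.

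Most miRNAs are cut out of a long primary transcript in the nucleus by the Drosha and DGCR8 complex, and the resulting hairpin is cut again by Dicer in the cytoplasm. The precursor of miR-320 skips the nuclear cut: RNA polymerase II makes it directly as a short hairpin with a capped 5′ end, which leaves the nucleus through exportin 1 and is then cut by Dicer. The maturation of miR-484 also needs Dicer and not Drosha or DGCR8. Among their known targets are the transferrin receptor CD71 and the muscle form of phosphofructokinase for miR-320, and the mitochondrial fission protein Fis1 for miR-484. Mature miRNAs were counted here, so the way in which they were made was not measured for any member or precursor gene.

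The mature sequences are shown because the members differ in the seed, the stretch that pairs with target RNA, and because reads of miR-320a and miR-320b are close to each other. They are printed 5′ to 3′ as deposited with the counts, with T for U and the seed, bases 2 to 8, in capitals.
bta-miR-320a: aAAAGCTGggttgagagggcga
bta-miR-320b: aGCTGGGTtgagagggtggt
bta-miR-484: tCAGGCTCagtcccctcccgat
A run of 16 nt was shared by both miR-320 sequences, from base 4 to base 19 of bta-miR-320a and from base 1 to base 16 of bta-miR-320b. Because the run is shifted between them, their seeds differ although the sequences are only 6 edits apart (inserted, deleted or changed bases). Among the 779 sequences, the nearest to bta-miR-484 was that of bta-miR-11973, at 8 edits. No other known miRNA had the seed of a member, and no predicted miRNA held bases 1 to 15 of a member. G and C made up 54.5% of bta-miR-320a, 60% of bta-miR-320b and 63.6% of bta-miR-484, against a median of 45.8% in known miRNAs. A GC content as high as that of bta-miR-484 was found in 29 of 276 known miRNAs, and 76 reached that of bta-miR-320a. The length of 22 nt that bta-miR-320a and bta-miR-484 share was the length of 134 known miRNAs, and bta-miR-320b was 20 nt long.

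All 3 members matched precursor genes in the RefSeq annotation of ARS-UCD2.0, 4 genes in total. Its coordinates are not given because the deposited files refer to another assembly, ARS-UCD1.2. The mature bta-miR-320a can come from 2 genes, whose reads cannot be told apart. The gene MIR320A-1 lay within 1 kb of POLR3D, which encodes a subunit of RNA polymerase III, and MIR320A-2 lay within the span of RNF180. The gene MIR320B had PODXL and PLXNA4 as its nearest protein-coding neighbours, neither of them within 1 kb. The gene MIR484 was within 1 kb of both MARF1 and NDE1.

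In the milk EVs, bta-miR-320a and bta-miR-484 were detected in every cow with at least 144 counts, whereas bta-miR-320b was detected in 1 cow only. Their shares of the known miRNA counts added up to 0.637% ± 0.178 (SD, n = 6 cows). The total of known miRNA counts, which sets the precision of every share, was 70490, 161240 and 61156 in control cows 1, 2 and 3 and 176919, 96254 and 69625 in replacement cows 1, 2 and 3. Values of the cows are given in this order throughout. In a bulk sample, fewer vesicles from a cell type and less of a miRNA per vesicle cannot be told apart.

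The counts of bta-miR-320a were 252, 433 and 391 for control and 420, 320 and 207 for replacement cows. Its share was 0.357%, 0.269% and 0.639% for control and 0.237%, 0.332% and 0.297% for replacement cows. The 95% Wilson intervals of these shares, which cover counting error only because PCR copies are not independent molecules, were 0.316 to 0.404, 0.244 to 0.295 and 0.579 to 0.706 for the control cows and 0.216 to 0.261, 0.298 to 0.371 and 0.260 to 0.341 for the replacement cows. Control cow 3 was the highest, with an interval above those of all other cows, and the other 5 cows of both diets were mixed. The mean was 0.355% ± 0.146 (SD, n = 6), with a median of 0.315%.

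The height of control cow 3 depended on what the count was divided by. In that cow, known miRNAs took 15.8% of all miRNA counts, the lowest value of the 6 cows, whose others were 21.5% and 29.0% in control cows 1 and 2 and 42.0%, 35.2% and 25.7% in the replacement cows. Divided by all miRNA counts, predicted ones included, bta-miR-320a held 0.0767%, 0.0778% and 0.101% for control and 0.0997%, 0.117% and 0.0764% for replacement cows. On this scale replacement cow 2 was the highest and control cow 3 came next. In the deposited RPM, reads scaled to a common total, the values were 19.2, 34.4 and 31.5 for control and 31.4, 26.4 and 16.4 for replacement cows, with control cow 2 the highest.

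The counts of bta-miR-484 were 144, 423 and 209 for control and 421, 317 and 204 for replacement cows. Its share was 0.204%, 0.262% and 0.342% for control and 0.238%, 0.329% and 0.293% for replacement cows. The Wilson intervals were 0.174 to 0.240, 0.239 to 0.289 and 0.299 to 0.391 for the control cows and 0.216 to 0.262, 0.295 to 0.368 and 0.256 to 0.336 for the replacement cows. Control cow 1 was the lowest and control cow 3 the highest, and the replacement cows lay between them, so the diets overlapped. The mean was 0.278% ± 0.0533 (SD, n = 6). Divided by all miRNA counts, bta-miR-484 held 0.0438%, 0.0760% and 0.0539% for control and 0.09995%, 0.116% and 0.0753% for replacement cows. On this scale control cow 3 was the second lowest, and the diets overlapped only through control cow 2 and replacement cow 3. In RPM, bta-miR-484 reached 11.0, 33.6 and 16.8 for control and 31.5, 26.1 and 16.2 for replacement cows.

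The spread between cows, as SD in percent of the mean, was 19.2% for bta-miR-484 and 41.0% for bta-miR-320a. Among the 84 known miRNAs with at least 10 counts in every cow, these were the 9th and the 50th lowest values, and the median was 38.7%. On this total bta-miR-484 varied less between cows than bta-miR-320a, but on other totals, tried after the counts were seen, the order turned round. Divided by all miRNA counts, the spread was 34.98% for bta-miR-484 and 18.5% for bta-miR-320a, and in RPM it was 40.8% and 27.5%. Their positions among the 84 miRNAs became 21 and 3 with all miRNA counts (median 46.2%) and 24 and 11 in RPM (median 56.1%). It also turned round without control cow 3, with 16.1% for bta-miR-320a and 18.2% for bta-miR-484 on the known miRNA total. Which of the members was the steadier therefore depended on the total and on that cow.

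**Figure D1:**
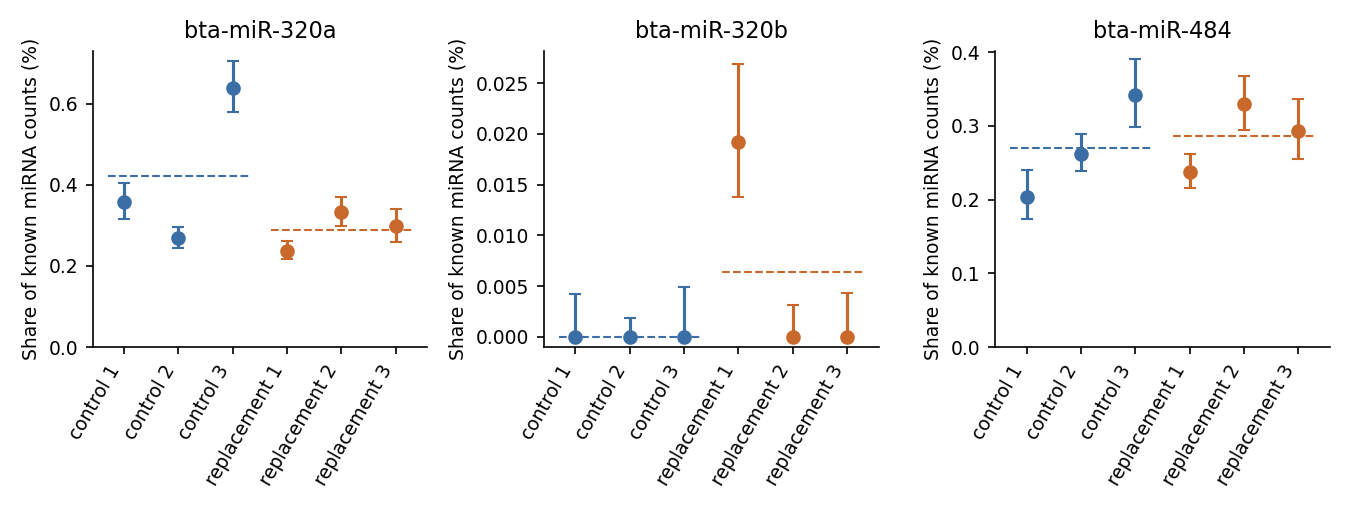
Share of each member in the counts of known miRNAs (%, vertical axis, with a different scale in each panel) in each of the 6 cows (horizontal axis), with 95% Wilson intervals as bars (for counts of 0, bars up to the limit set by 3 counts), control cows in blue, replacement cows in orange and dashed lines at the mean of each diet. Control cow 3 is the highest for bta-miR-320a, and bta-miR-320b has counts in replacement cow 1 only.

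The second miR-320, bta-miR-320b, had 34 counts in replacement cow 1 and 0 counts in the other 5 cows. Its share in replacement cow 1 was 0.0192% (95% Wilson interval 0.0138 to 0.0269), at rank 112 of that cow. A count of 0 allowed, at 3 counts, shares of up to 0.00426%, 0.00186% and 0.00491% in the control cows. In replacement cows 2 and 3, which also had none, these limits were 0.00312% and 0.00431%. All of these limits lie below the interval of replacement cow 1, so a share of that size would have been likely to give counts in every cow. Within replacement cow 1, bta-miR-320b made up 7.49% (Wilson interval 5.41 to 10.3) of the 454 counts of both miR-320 sequences. In the cows without it, 3 counts would have been between 0.693% and 1.45% of the miR-320 counts, so the listed proportion of bta-miR-320b among miR-320 differed between cows by more than counting error. These limits cover counting error only: how reads that fit both sequences were assigned is not given in the sources used here, and its part in the 34 counts was not tested. Counts in a single cow were common: 81 known miRNAs showed them, 11 of these in replacement cow 1, with a median of 7 and a highest value of 46 counts. The count of bta-miR-320b was the fifth highest among the 81.

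Summed, miR-320 held 0.359% ± 0.143 (SD, n = 6), and it differed from bta-miR-320a alone in replacement cow 1 only, at 0.257%. All 3 members together held 0.562%, 0.531% and 0.981% for control and 0.495%, 0.662% and 0.590% for replacement cows. On this total control cow 3 was again the highest, with the other 5 cows close together. Divided by all miRNA counts, replacement cow 2 was the highest for both sums, and control cow 3 lay below replacement cows 1 and 2.

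In the order of mean shares, bta-miR-320a took rank 43 and bta-miR-484 rank 46 of the 276 known miRNAs, while bta-miR-320b took rank 187. Within single cows, bta-miR-320a was at ranks 41, 44 and 29 for control and 45, 40 and 47 for replacement cows. The ranks of bta-miR-484 were 53, 46 and 45 for control and 44, 41 and 48 for replacement cows. Both therefore kept to a narrow band of ranks outside control cow 3, where bta-miR-320a was higher, and control cow 1, where bta-miR-484 was lower.

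The next miRNA above bta-miR-320a was bta-let-7g, with a mean share of 0.372% ± 0.145 (SD, n = 6), which was the higher of the pair in 5 of 6 cows. The next below was bta-miR-143, with 0.300% ± 0.158 (SD, n = 6), which was above bta-miR-320a in 2 cows. Within 1 SD of the mean share of bta-miR-320a lay the mean shares of 15 known miRNAs. Around bta-miR-484, bta-miR-186 at 0.284% ± 0.0730 (SD, n = 6) was above it in 3 cows, and bta-let-7c at 0.277% ± 0.113 (SD, n = 6) was above it in 2 cows. The spread of bta-miR-484 took in 6 known miRNAs. The mean shares at neighbouring ranks thus differed from those of the members by less than the SD between cows. The members and their neighbours in rank were not tested against each other within cows.

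**Figure D2:**
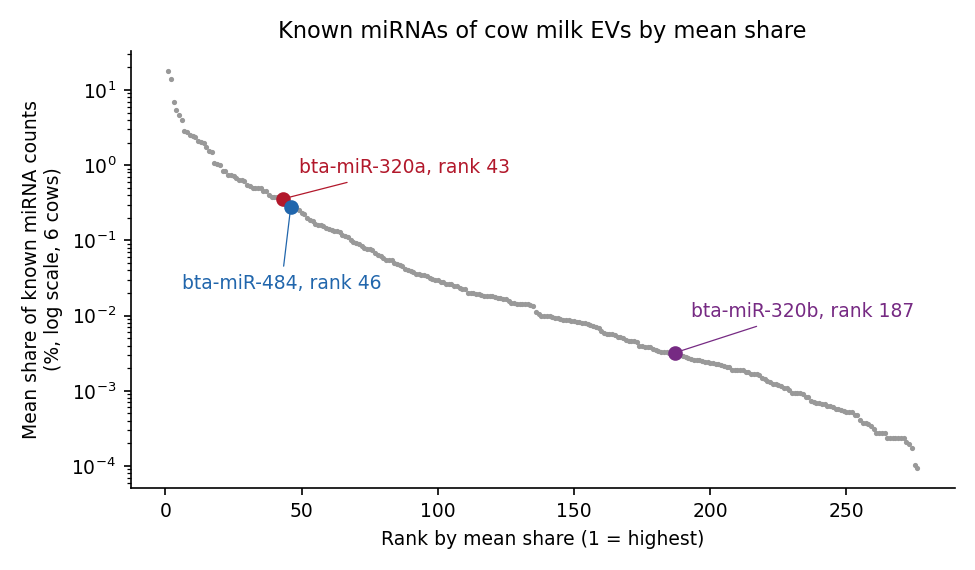
Mean share of each known miRNA over the 6 cows (%, vertical axis, log scale) against its rank (horizontal axis, 1 = highest), with known miRNAs in grey and the members in colour. At ranks 43 and 46 bta-miR-320a and bta-miR-484 are near each other, and bta-miR-320b is at rank 187.

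Between diets, the mean share of bta-miR-320a was 0.422% ± 0.194 (SD, n = 3) in the control cows and 0.289% ± 0.0481 (SD, n = 3) in the replacement cows. The difference, replacement minus control, was -0.133 percentage points (two-sided exact permutation test, p = 0.4, Benjamini-Hochberg adjusted p = 1 over 5 tests of members and sums). It rested on control cow 3, without which it was -0.0240, and with all miRNA counts as the total, predicted ones included, it was 0.0126, in the other direction. With the authors' total of reads it was again below 0, at -0.000363 (exact permutation test, p = 0.5). On the known miRNA total it was -0.209 without control cow 2. For bta-miR-484 the means were 0.269% ± 0.0690 (SD, n = 3) and 0.287% ± 0.0460 (SD, n = 3), a difference of 0.0173 (exact permutation test, p = 0.8), which was -0.0153 without control cow 1 and -0.00398 without replacement cow 2. The difference of bta-miR-320a was smaller than the SD of the control cows and larger than that of the replacement cows, and the difference of bta-miR-484 was smaller than both SDs. With all miRNA counts as the total, bta-miR-484 held 0.0579% ± 0.0165 (SD, n = 3) in the control cows against 0.0970% ± 0.0204 (SD, n = 3) in those fed the replacement, which differ by 0.0391 (exact permutation test, p = 0.2), larger than both SDs. The other totals gave a difference of 0.000412 (exact permutation test, p = 0.8) with the authors' total of reads, against SDs of 0.00117 and 0.000777, and one of 0.00245 (exact permutation test, p = 1) when the erythroid markers were taken out of the known miRNA counts. With 3 cows against 3 no exact p can be below 0.1. The most abundant predicted entry of the total of all miRNA counts had a log2 fold change of -1.28 between diets, replacement over control (quasi-likelihood test of edgeR, unadjusted p = 0.00784, adjusted p = 0.593). Its part in the differences on that total was not tested.

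The sum of miR-320 differed by -0.126 (exact permutation test, p = 0.4). The sum of all 3 members was 0.691% ± 0.251 (SD, n = 3) in the control cows and 0.582% ± 0.0839 (SD, n = 3) in the replacement cows, a difference of -0.109 (exact permutation test, p = 0.7), which was 0.0359 without control cow 3 and 0.0543 with all miRNA counts as the total. For bta-miR-320b the difference of 0.00641 (exact permutation test, p = 1) came from the single cow with counts. All 5 adjusted values were 1. Of the 84 known miRNAs with at least 10 counts in every cow, 6 (7.14%) had shares that did not overlap between diets, and neither bta-miR-320a nor bta-miR-484 was among them.

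Across the 227 miRNAs that passed the filter on low counts, the quasi-likelihood test of edgeR called 0 at a Benjamini-Hochberg adjusted p under 0.05 (0% of those tested), and 8 had an unadjusted p under 0.05. DESeq2 called 7 of 779 miRNAs, edgeR without the filter 15 of 779 and limma-voom 0 of 227, with no member among them. In those fits without a filter, bta-miR-320b had an adjusted p of 0.503 in DESeq2 and 0.420 in edgeR. Of the members, bta-miR-320a and bta-miR-484 passed the filter and bta-miR-320b did not. The log2 fold change, replacement over control, was -0.47 (SE 0.43) for bta-miR-320a and 0.11 (SE 0.45) for bta-miR-484, both with an adjusted p of 0.986 in edgeR. Over the alternatives tried, the adjusted p ran from 0.787 to 0.999 for bta-miR-320a and from 0.623 to 0.999 for bta-miR-484. By size of change they were at positions 125 and 199 of 227, so for either member more of the tested miRNAs had a larger fitted change than a smaller one. This order takes no account of the SE, which was larger for miRNAs such as bta-miR-106b (log2 fold change -1.05, SE 2.29) than for the members. The median log2 fold change of all tested miRNAs was 0.03 in this fit, 0.17 with the size factors of DESeq2 and 0.63 when libraries were scaled by their totals alone. With totals alone, bta-miR-320a had a log2 fold change of 0.21, above 0 but below that median, and bta-miR-484 one of 0.76, above it. Without control cow 3 the log2 fold change of bta-miR-320a was -0.22, and without control cow 1 that of bta-miR-484 was -0.085, in the other direction.

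**Figure D3:**
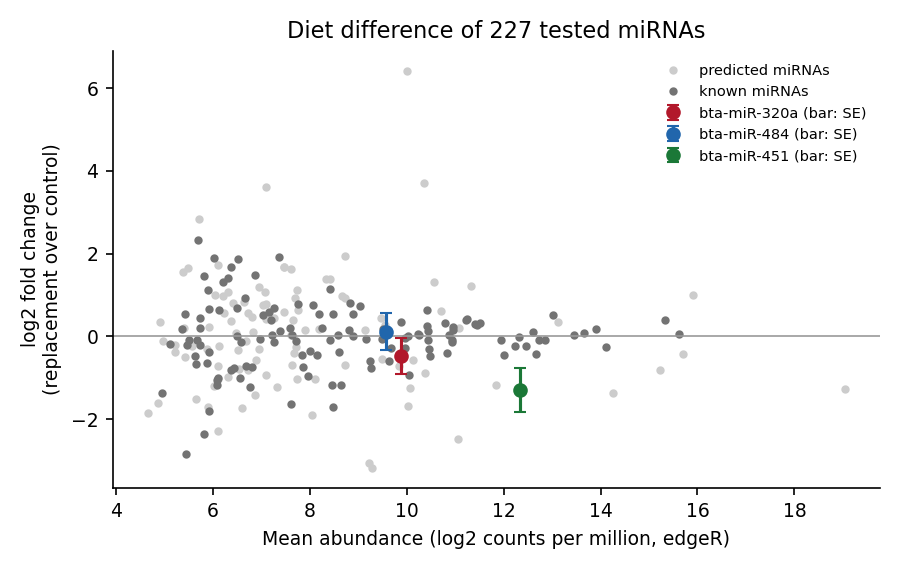
Log2 fold change between diets (replacement over control, vertical axis) against mean abundance (log2 CPM, counts scaled to a common library total, horizontal axis) for the 227 miRNAs tested with edgeR, with known miRNAs in dark grey, predicted ones in light grey and standard errors as bars on the named miRNAs. The values of bta-miR-320a and bta-miR-484 lie near 0, within the cloud of the other miRNAs.

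Because both were counted in the same library, the counts of bta-miR-320a and bta-miR-484 can be compared within each cow without normalization. Whether equal counts of different sequences stand for equal amounts was not tested. The ratio of their counts was 1.75, 1.02 and 1.87 for control and 0.998, 1.01 and 1.01 for replacement cows. The exact (Clopper-Pearson) 95% intervals of the ratio were 1.42 to 2.16, 0.893 to 1.17 and 1.58 to 2.22 in the control cows and 0.869 to 1.14, 0.862 to 1.18 and 0.832 to 1.24 in the replacement cows. In control cows 1 and 3 bta-miR-320a had the higher count beyond counting error, and in the other 4 cows the counts of the pair were even within counting error. Over all cows the mean log2 ratio was 0.30 ± 0.43 (SD, n = 6), with bta-miR-320a the higher in 5 of 6 cows (two-sided exact sign-flip permutation test, p = 0.0625, smallest possible p = 0.03125). The average ratio of 1.23 was therefore not separated from even counts by this test. The mean log2 ratio was 0.17 without control cow 3 and 0.19 without control cow 1.

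The replacement cows held nearly equal counts of both miRNAs: 420 and 421 in cow 1, 320 and 317 in cow 2, and 207 and 204 in cow 3. Their log2 ratio was 0.01 with an SD of 0.0126 (n = 3), while counting error alone gives each of these ratios a standard error of 0.0995 to 0.142. Among all 3486 pairs of known miRNAs with at least 10 counts in every cow, this SD was the third lowest, against a median of 0.787. Over the 6 cows the SD of 0.43 was at position 311 of 3486, with a median of 0.92, so the pair was less far from the other pairs when all cows were taken. The equality was noticed after the values were seen and was given no test of its own. Whether it arose when the deposited table was made was not tested, which also bears on the ratio between diets.

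In the control cows the mean log2 ratio was 0.58 ± 0.48 (SD, n = 3), and the difference, replacement minus control, was -0.57 (exact permutation test, two-sided, p = 0.1, which 3 cows against 3 cannot go below). All 3 control cows had a higher ratio than all 3 replacement cows. For control cow 2, at 1.02, the distance from the replacement cows was within counting error. Of the 3486 pairs, 283 (8.12%) did not overlap between diets, and this comparison was also chosen after the counts were seen.

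**Figure D4:**
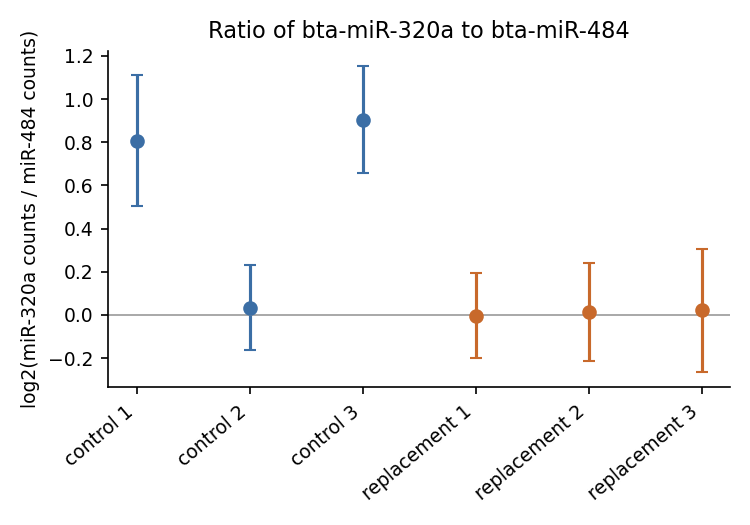
Log2 ratio of bta-miR-320a counts to bta-miR-484 counts (vertical axis) in each cow (horizontal axis), with exact 95% intervals as bars, control cows in blue and replacement cows in orange. Control cows 1 and 3 lie above 0, and the other 4 cows lie at 0 within their intervals.

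To find the miRNAs that varied most alike across cows, the SD over 6 cows of the log2 ratio of counts was computed between each member and the 83 other known miRNAs with at least 10 counts in every cow, where a low SD means a steady ratio. Closest to bta-miR-320a were bta-let-7g with 0.28, bta-miR-486 with 0.29 and bta-miR-92a with 0.35, against a median of 0.75. The share of bta-let-7g, a member of the let-7 family, was 0.271%, 0.319% and 0.648% for control and 0.254%, 0.340% and 0.402% for replacement cows. For bta-miR-486, which is abundant in red blood cells and is on the list of erythroid markers as well, it was 7.70%, 3.72% and 11.3% for control and 4.10%, 6.77% and 7.39% for replacement cows. Both were highest in control cow 3 like bta-miR-320a, which follows from their choice by a steady ratio to it.

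Closest to bta-miR-484 were bta-miR-342 with 0.25, bta-miR-92a with 0.27 and bta-let-7a-5p with 0.28, against a median of 0.69. The share of bta-miR-342, known from leukocytes, was 0.661%, 0.793% and 0.747% for control and 0.648%, 0.738% and 0.658% for replacement cows, a narrower range in proportion than that of bta-miR-484. For bta-miR-92a, a product of the miR-17-92 cluster that is also on the list of erythroid markers used here, it was 1.60%, 1.81% and 2.34% for control and 1.59%, 1.54% and 1.62% for replacement cows. In these orders bta-miR-484 was at position 9 for bta-miR-320a, and bta-miR-320a at position 10 for bta-miR-484. The shares of a cow have a common total, so they are not independent of each other.

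**Figure D5:**
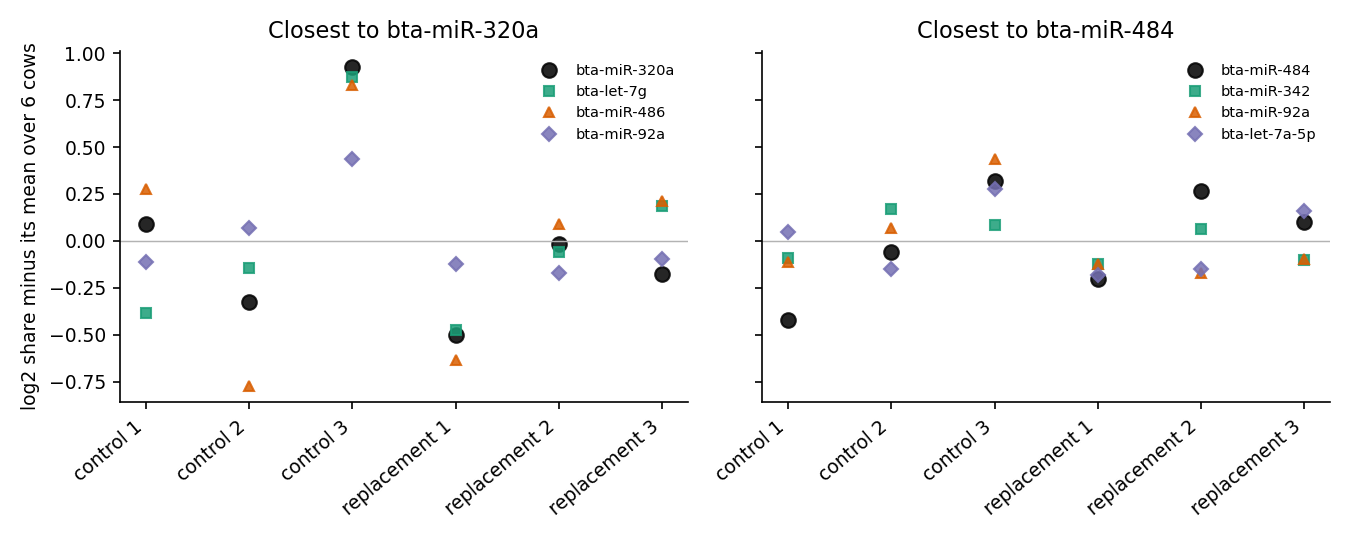
Log2 share of known miRNA counts minus its mean over the 6 cows (vertical axis) in each cow (horizontal axis), for bta-miR-320a and its 3 closest miRNAs (left) and for bta-miR-484 and its 3 closest (right). The left set is highest in control cow 3, and the values of the right set lie between -0.42 and 0.43.

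Other miRNAs whose making departs from the usual route were listed by number. These were miR-451, which is cut by Argonaute 2 in place of Dicer, 9 numbers listed as mirtrons, and 3 miRNAs from small nucleolar RNAs. Mirtrons as a class are released by splicing, which was not checked for each number. Of these 13 numbers, 3 had counts, and the other 10, all mirtrons included, have no value here. Only bta-miR-451 was abundant, with shares of 1.45%, 1.49% and 5.65% for control and 0.709%, 1.08% and 1.64% for replacement cows. Its mean of 2.00% ± 1.82 (SD, n = 6) exceeded those of bta-miR-320a and bta-miR-484, it was above both in every cow, and its highest value was in control cow 3. Divided by all miRNA counts, bta-miR-451 held 0.312%, 0.431% and 0.891% for control and 0.298%, 0.380% and 0.422% for replacement cows, so it was highest in control cow 3 on both totals, unlike bta-miR-320a. Of the list, 1 miRNA was tested between diets and 0 were called by edgeR, where bta-miR-451 had a log2 fold change of -1.30 (SE 0.53, unadjusted p = 0.0391, adjusted p = 0.986). This value includes control cow 3, which stood far above the other cows, and the fold change of bta-miR-451 without that cow is not given here. The remaining members of the list with counts were bta-miR-664b, with 4 counts in control cow 2, and bta-miR-1248, with 4 counts in replacement cow 2.

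Markers of cell types whose vesicles milk can hold were listed to set beside the members. The erythroid list, of which 7 of 8 miRNAs had counts and miR-363 has no value here, summed to 10.9%, 7.20% and 20.2% for control and 6.49%, 9.53% and 10.9% for replacement cows. Its most abundant miRNA was bta-miR-486 in every cow, and its only values of 0 were those of bta-miR-16b and bta-miR-96 in replacement cow 3. On this total the erythroid sum was highest in control cow 3, the cow with the highest share of bta-miR-320a. Divided by all miRNA counts, the erythroid sum was 2.34%, 2.09% and 3.18% for control and 2.72%, 3.35% and 2.81% for replacement cows. Replacement cow 2 was the highest, as for bta-miR-320a on that total, and so it was for bta-miR-486, which led the sum. In contrast, bta-miR-451, bta-miR-144, bta-miR-185 and bta-miR-96 of this list were highest in control cow 3 on both totals. Of the rest, bta-miR-16b was highest in replacement cow 2 on both totals. For bta-miR-92a the highest was control cow 3 on the known miRNA total and replacement cow 1 on all miRNA counts. With the erythroid list taken out of the total, bta-miR-320a held 0.401%, 0.289% and 0.801% for control and 0.254%, 0.367% and 0.334% for replacement cows. Since the erythroid sum took the highest share of known miRNA counts in control cow 3, this total could only raise that cow further, so it does not test the part of red blood cell material. For bta-miR-484 the shares on this total were 0.229%, 0.283% and 0.428% for control and 0.254%, 0.364% and 0.329% for replacement cows. The part of red blood cell material in the level of bta-miR-320a in control cow 3 was not tested.

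The leukocyte list, with counts for 8 of 8 miRNAs, summed to 2.29%, 3.17% and 3.18% for control and 2.00%, 2.26% and 3.15% for replacement cows. It was led by bta-miR-150, and bta-miR-142-3p was at 0 in every cow but control cow 3. The mammary epithelium list, with counts for 9 of 9 miRNAs, summed to 1.10%, 0.812% and 0.919% for control and 0.841%, 0.395% and 0.675% for replacement cows. It was led by bta-miR-148a. The number of its miRNAs at 0 was 1, 0 and 2 for control and 0, 6 and 2 for replacement cows, those of replacement cow 2 being bta-miR-200a, bta-miR-200b, bta-miR-200c, bta-miR-141, bta-miR-429 and bta-miR-205. The leukocyte sum was about level in control cows 2 and 3 and replacement cow 3, and the mammary epithelium sum was highest in control cow 1. Divided by all miRNA counts, the leukocyte sum was highest in control cow 2, at 0.918%, and the mammary epithelium sum in replacement cow 1, at 0.353%. As on the erythroid list, some miRNAs of these lists were highest in control cow 3 on both totals. These were bta-miR-182 and bta-miR-141 of the mammary epithelium list and bta-miR-142-3p of the leukocyte list. The part of leukocyte and mammary epithelium material in the levels of the members was not tested.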

How the data were processed

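Small RNA of milk EVs from 6 cows was sequenced. According to the submitters' processing notes, Cutadapt 1.14, Bowtie and the assembly ARS-UCD1.2 were used. The methods of the study, which cover both cow and sheep reads, also name FASTX Toolkit, NGS QC Toolkit, Rfam, BLAST, miRBase and miRDeep2. The deposited counts are whole reads of each mature miRNA, listed with its sequence. The deposited RPM values, named TPM, are the same counts scaled by 1 total of reads per cow (12130660 to 13369168), without a length term. The counter, the use of strand and the treatment of reads with several matching miRNAs are not given in the sources used here. The authors' table comparing the diets, with fold changes and p-values, was not used, and sheep samples were not analysed here.

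Shares of the counts of known miRNAs (61156 to 176919 per cow), ranks, ratios and exact permutation tests were computed in Python 3.11.15 with numpy 2.4.6, scipy 1.17.1 and pandas 2.3.3, and figures with matplotlib 3.10.9. Diets were compared across all miRNAs in R 4.3.3 with edgeR 4.0.16 (quasi-likelihood test, TMM scaling, its default filter for low counts, adjusted p under 0.05). This comparison was tested on simulated data, with an outcome that is not given here. Alternatives were DESeq2 1.42.0, limma 3.58.1, other scalings, filters and totals, a replicate block and each cow left out in turn. Alternatives for the spread between cows and for the marker sums were added after the counts were seen. SE is the size of the log2 fold change divided by the square root of F. P-values measure the spread between cows, which were separate animals of a diet by their labels. Cows of a diet differed by more than counting error (chi-square divided by its degrees of freedom 38.9 to 119). That comparison covers counting error only, since PCR copies are not independent molecules, and says nothing on the source of the spread.

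Named were all members, for each member with at least 10 counts in every cow the 3 most alike known miRNAs and its neighbours in rank, miRNAs sharing a seed or bases 1 to 15, listed miRNAs made by other routes, miRNAs called by edgeR, and the marker lists. Other names, such as bta-miR-11973, were chosen after their values were seen. The members and lists were chosen with earlier results of these data known.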

Additional observations from a re-analysis of the deposited data

Results flagged for a closer look

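Of 10 results checked over the 6 cows, 6 had a cow whose gap to the nearest other cow was a large part of the whole range. Chance gives this in about 1 in 20 results, or 0.5 of 10, but the 6 are not separate events, since 5 of them concern control cow 3 and several use the same counts. For bta-miR-320b, with counts in a single cow, the gap is the whole range by construction, so this rate does not apply to it. The share of bta-miR-320a in control cow 3 was 0.639%. The sum of miR-320 in that cow was the same 0.639%, because bta-miR-320b had no counts there, and the sum of all members was 0.981%. In the same cow the erythroid list summed to 20.2%, of which bta-miR-451 held 5.65%. These are shares of known miRNA counts. Divided by all miRNA counts, bta-miR-320a, the sum of miR-320, the sum of all members and the erythroid sum were highest in replacement cow 2. By contrast, bta-miR-451 was still highest in control cow 3, at 0.891% against 0.298% to 0.431% in the other cows. Of the erythroid list, bta-miR-144, bta-miR-185 and bta-miR-96 were also highest in control cow 3 on both totals, and bta-miR-92a and bta-miR-16b were not. Outside that list, bta-miR-182 and bta-miR-141 of the mammary epithelium list and bta-miR-142-3p of the leukocyte list were highest there too. The share of bta-miR-320b in replacement cow 1 was 0.0192%, with 0 counts in the other 5 cows.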

How the results depend on the processing

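Of the values recomputed with other settings, 160 kept their direction or moved little (less than the spread between cows or, for that spread itself, less than 1.5 times), 16 moved further and 8 changed direction. The members were fitted 30 times over the settings (bta-miR-320b in 2 of these, DESeq2 and edgeR without a filter) and called 0 times. The log2 fold change of bta-miR-320a was 0.21 with libraries scaled by their totals alone and ran from -0.56 to -0.22 with each cow left out. That of bta-miR-484 ran from -0.085 (without control cow 1) to 0.34 with each cow left out. Calls among all miRNAs were 15 without a filter, 7 with DESeq2 and 0 to 1 with each cow left out (1 without control cow 2 and 1 without control cow 3).

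With known and predicted miRNAs as the total, the mean share was 0.0914% for bta-miR-320a, 0.0775% for bta-miR-484 and 0.170% for their sum with bta-miR-320b, and with the authors' total of reads 0.00266%, 0.00225% and 0.00495%, by construction of these larger totals. The diet difference became 0.0126 for bta-miR-320a and 0.0543 for the sum with the first total, where that of bta-miR-484 grew to 0.0391 (exact permutation test, p = 0.2), and 0.000134 for the sum with the second. The diet difference of bta-miR-484 ran from -0.0153 (without control cow 1) to 0.0535 with each cow left out, and was -0.00398 without replacement cow 2. That of the sum ran from -0.189 to 0.0359 (without control cow 3). Both values for bta-miR-320b, its mean share and its diet difference, were 0 without replacement cow 1. The spread between cows (SD in percent of the mean) was 18.5% for bta-miR-320a and 34.98% for bta-miR-484 with the first total and 27.5% and 40.8% with the second, and ran from 16.1% (without control cow 3) to 45.9% and from 14.9% to 21.5% with each cow left out. Ranked with predicted miRNAs, bta-miR-320a was at 62 and bta-miR-484 at 66. The cause of the changes of direction was not tested.

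The mean log2 ratio of bta-miR-320a to bta-miR-484 ran from 0.17 to 0.36 with each cow left out. The diet difference in the log2 ratio of bta-miR-320a to bta-miR-484, added after the counts were seen, ran from -0.85 to -0.41 with each cow left out (exact permutation test, p = 0.2 each). That is the smallest p this test can give with a cow left out. Cow numbers are not said to pair the cows. Deviations of same-numbered cows correlated at -0.11, -0.158 and 0.177, and those of differently numbered cows at -0.26 to 0.32. With 3 cows per diet, these values cannot exclude a pairing. With a replicate block, the log2 fold change was -0.43 for bta-miR-320a and 0.13 for bta-miR-484 (edgeR, adjusted p = 0.982 for both), and 0 miRNAs were called.

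Depth limits bta-miR-320b, since 0 counts in the cows without it have limits of 0.00186% to 0.00491%, set at 3 counts, and the 3 cows of a diet allow no exact p below 0.1.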

Other observations

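A predicted miRNA of 19 nt had the seed of bta-miR-320a and was chosen after its values were seen. Its sequence, with bases 2 to 8 in capitals, shares a run of 8 nt with bta-miR-320a.
predicted miRNA: aAAAGCTGcctgggccgag
It had 10, 39 and 0 counts in the control cows and 0 counts in each replacement cow, so it was detected in 2 of 6 cows, both on the control diet, at counts far below those of bta-miR-320a.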
